A study of Mus musculus with 10 samples.

Results

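Fatty acid receptors and oxygenases are the proteins through which polyunsaturated fatty acids act as signals, and 6 of their genes were examined here in mouse brain: Ppara, Pparg, Rxra, Ptgs2, Ptgs1 and Alox5. The genes were chosen by name, and their probes were taken as all non-control probes inside a fixed genomic window around each gene on the mouse build mm9. The windows held 35 of the 88737 probes of a CpG island array, and these formed 5 of its 13835 clusters of at least 3 probes with starts no more than 500 bp apart. No probe lay in the window of Ptgs2, so its methylation was not measured.

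DNA methylation had been measured by methylated DNA immunoprecipitation on 2-colour arrays (MeDIP-chip) in left hemibrain of male C57BL/6j mice, an inbred strain. The mice had received 1 of 3 diets from 3 weeks of age for 24 weeks, and carried no other treatment or allele that the labels name. The n-3 PUFA-enriched diet (ERD) had an n-3 to n-6 ratio of 7:1 (4 arrays) and the balanced diet (BLD) a ratio of 1:1 (3 arrays). The standard lab diet (STD), taken here as the control, had a ratio of 1:6 (3 arrays). The title of every sample holds the word CONTROL, so the titles do not single out any diet as the control. The labels do not state that each array is a separate animal, so p-values measure only the spread between these samples, and a hemibrain mixes all of its cell types. The assay measures no RNA, so neither the tissue nor the expression of these genes could be checked.

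Long-chain fatty acids and their oxidised products bind PPARα and PPARγ, nuclear receptors that bind DNA as a pair with RXRα and switch on genes of lipid handling. The cyclooxygenases encoded by Ptgs1 and Ptgs2 convert arachidonic acid, an n-6 fatty acid, to prostaglandins, and 5-lipoxygenase, encoded by Alox5, converts it to leukotrienes. The n-3 fatty acids compete with arachidonic acid for these enzymes, and docosahexaenoic acid, the main n-3 fatty acid of brain membranes, is a ligand of RXRα. CpG islands are stretches rich in CpG, the dinucleotide that carries most DNA methylation in mammals, and the antibody pulls down DNA according to both its methylation and its number of CpG sites.

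The promoters of the genes differ widely in that number. RefSeq promoter windows of 300 bp, from 250 bases before to 50 bases after the gene start on the build GRCm38.p6, were matched for all 6 genes and gave 9 promoters. The 4 printed here are those of Ppara, whose island is described most fully, the first of Rxra, which held the most CpG, Alox5, which was close to the median of all promoters, and Ptgs2, which no probe covered. CpG dinucleotides are in capitals.
Ppara promoter, chr15:85735526-85735825, plus strand: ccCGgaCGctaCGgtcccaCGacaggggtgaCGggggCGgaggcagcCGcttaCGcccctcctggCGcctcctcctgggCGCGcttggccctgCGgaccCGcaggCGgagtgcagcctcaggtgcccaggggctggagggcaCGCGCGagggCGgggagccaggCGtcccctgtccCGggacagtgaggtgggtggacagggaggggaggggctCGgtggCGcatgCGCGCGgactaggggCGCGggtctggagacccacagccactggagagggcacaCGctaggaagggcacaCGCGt
Rxra promoter, chr2:27676951-27677250, plus strand: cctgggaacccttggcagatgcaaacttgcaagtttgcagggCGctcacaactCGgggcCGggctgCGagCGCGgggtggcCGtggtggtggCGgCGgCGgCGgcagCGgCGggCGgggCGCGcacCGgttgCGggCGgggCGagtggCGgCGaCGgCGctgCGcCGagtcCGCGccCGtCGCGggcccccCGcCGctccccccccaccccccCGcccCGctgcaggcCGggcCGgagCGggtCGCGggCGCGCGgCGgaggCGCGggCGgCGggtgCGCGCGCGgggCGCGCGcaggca
Alox5 promoter, chr6:116461129-116461428, minus strand: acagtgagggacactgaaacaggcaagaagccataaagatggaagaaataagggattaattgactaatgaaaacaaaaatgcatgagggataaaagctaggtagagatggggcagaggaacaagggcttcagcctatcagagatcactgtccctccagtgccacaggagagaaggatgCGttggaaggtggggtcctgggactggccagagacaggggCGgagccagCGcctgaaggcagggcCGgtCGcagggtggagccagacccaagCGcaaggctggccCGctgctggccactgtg
Ptgs2 promoter, chr1:150099781-150100080, plus strand: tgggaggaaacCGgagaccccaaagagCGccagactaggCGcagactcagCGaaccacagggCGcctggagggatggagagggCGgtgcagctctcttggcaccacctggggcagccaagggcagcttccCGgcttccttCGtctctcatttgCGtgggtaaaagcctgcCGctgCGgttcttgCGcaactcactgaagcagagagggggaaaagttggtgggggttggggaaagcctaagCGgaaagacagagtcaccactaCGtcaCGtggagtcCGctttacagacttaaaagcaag
The first Rxra promoter held 55 CpG, more than 99.8% of the 32851 promoters of the same length, whose median was 7. The first Pparg promoter held 44 and that of Ppara 30. The other receptor promoters held fewer, with 13 in the second and 2 in the third of Pparg and 1 in the second of Rxra. Ptgs2 had 16 CpG, against 7 in Alox5 and 6 in Ptgs1, so these last genes lie close to the median promoter. The letters of the PPAR and RXR direct repeat, AGGTCANAGGTCA, were in 0 of the 9 promoters on either strand, and in 0.0396% of all promoters. Its core AGGTCA, which is contained in that repeat, was in 3 of the 9, namely the first and second promoters of Pparg and the second of Rxra, and in 16.3% of all. The Sp1 box GGGCGG was in 6 of the 9, against 35.7% of all promoters. These matches describe letters only. The probes are on another build, so where they lie relative to these promoters, and in which exon or intron, was not determined. The probe sequences themselves were not used here.

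Each probe value below is the log2 ratio of immunoprecipitated DNA (Cy5) to input DNA (Cy3), with the median of the array set to 0. A cluster value is the mean of its probes. A positive value therefore means more pull-down than at the median probe of that array, not a share of methylated molecules. Between 76.4% and 94.7% of probes were well above background in both channels on an array, and 80% to 97.1% of the spots of these genes were. The number of arrays and the dim spots limit the precision. The interquartile range of log2 ratios differed between arrays, at 0.61 to 0.79 in ERD, 0.38 to 0.74 in BLD and 0.38 to 0.53 in STD. With all arrays scaled to one spread, the Ppara difference between ERD and STD given below was 0.18 in place of 0.20 (limma adjusted p = 0.385), and that of its probe 8 was 0.51 in place of 0.67.

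By mean level, Ptgs1, Alox5 and Rxra lay near the middle of all clusters, and Ppara and Pparg lay higher. Ppara had the highest mean level over the 10 arrays, 0.09, which was above 73.9% of all clusters. Pparg followed with 0.08, above 72.4% of clusters, then Ptgs1 with 0.0038 (59.5%) and Alox5 with -0.0089 (57.4%). Rxra was lowest with -0.06, above 46.6% of clusters. Between neighbours in this order the mean difference was smaller than its SD over the 10 arrays. It was 0.01 ± 0.20 (SD) between Ppara and Pparg, and 0.05 ± 0.23 between Alox5 and Rxra. The ends of the order, Ppara and Rxra, differed by 0.15 ± 0.15, with Ppara higher on 8 of 10 arrays. This SD is the spread of single arrays, not the precision of the mean, and whether the mean levels differ was not tested.

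**Figure D1:**
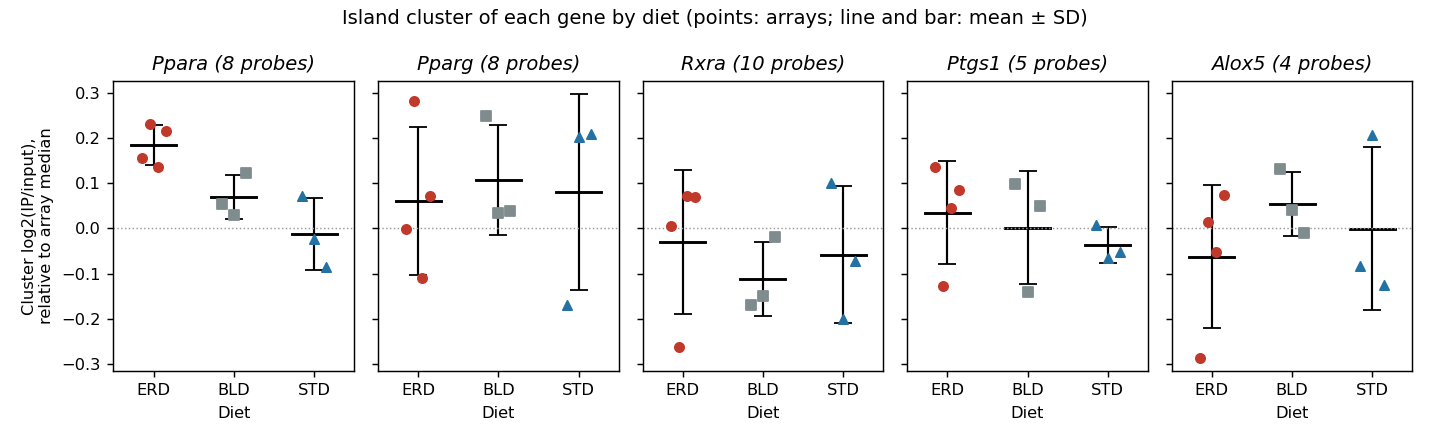
Log2 ratio of each gene's island cluster relative to the array median (vertical axis) by diet (horizontal axis), with 1 point per array and the mean ± SD. The 4 ERD arrays of Ppara lie between 0.14 and 0.23, above the BLD and STD arrays, while the diets overlap in the other 4 genes.

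The island of Ppara, the receptor that drives fatty acid oxidation, had higher values on all ERD arrays than on the arrays of the other diets, but the differences did not pass the test. Its 8 probes span chr15:85565281-85566557. The cluster had log2 ratios of 0.16, 0.23, 0.14 and 0.21 on the ERD arrays, 0.05, 0.03 and 0.12 on the BLD arrays, and 0.07, -0.02 and -0.08 on the STD arrays. Every ERD array was above every BLD and STD array, while BLD and STD overlapped. Their mean was 0.18 ± 0.05 in the 4 ERD arrays, 0.07 ± 0.05 in the 3 BLD arrays and -0.01 ± 0.08 in the 3 STD arrays (± is the SD). ERD exceeded STD by 0.20 ± 0.08 (SE, 95% interval 0.01 to 0.38), with a limma p of 0.0365 that became 0.286 after Benjamini-Hochberg adjustment over all clusters, so the difference did not pass the threshold of 0.05.

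ERD exceeded BLD at Ppara by 0.12 ± 0.08 (SE, 95% interval -0.07 to 0.30, limma adjusted p = 0.660), and BLD exceeded STD by 0.08 ± 0.09 (SE, 95% interval -0.11 to 0.28, limma adjusted p = 0.717). The fitted slope was 0.04 per doubling of the diet ratio, n-3 over n-6, (limma adjusted p = 0.286), which did not pass either. Arrays of ERD lay above those of both other diets in 131 clusters, or 0.947% of the array, of which Ppara was 1. Ranked within each array, Ppara stood above 73.5% to 81.8% of clusters in ERD, 52.3% to 79.7% in BLD and 39.8% to 69.3% in STD. By rank, BLD replicate 3 therefore lay within the ERD range.

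The probes of Ppara differed in their share of this difference. Probe 8, at the end of the cluster (chr15:85566513-85566557), had log2 ratios of 0.60, 1.10, 0.49 and 1.00 in ERD, 0.30, 0.40 and 0.34 in BLD, and -0.06, 0.33 and 0.12 in STD. All 4 ERD values were above all BLD and STD values. The probe differed by 0.67 ± 0.20 (SE) between ERD and STD, with a limma p of 0.00577, or 0.179 adjusted over all probes, and by 0.45 ± 0.20 between ERD and BLD (limma adjusted p = 0.419). It was not well above background on ERD replicates 3 and 4, and with normexp background correction its difference between ERD and STD was 0.06. Without it, an alternative chosen after seeing the data, the cluster difference between ERD and STD was 0.13 ± 0.09 (SE, limma adjusted p = 0.468) and the arrays of these diets overlapped. With only the 4 probes that were well above background on all arrays it was -0.03. Probe 7 (chr15:85566360-85566404) had the lowest mean of the 8 and was the probe with the lowest p between BLD and STD, where it differed by 0.46 ± 0.23 (SE, limma adjusted p = 0.489). It was not well above background on STD replicate 3, and that difference was -0.19 with normexp.

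Ppara also had the lowest SD within diets of the 5 islands. It was 0.058, lower than in all but 0.806% of the 993 clusters with 8 probes, whose median was 0.137. Of its 8 probes, 6 were higher in ERD than in STD, as were 5 of the 8 of Pparg and 53.3% of all probes.

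**Figure D2:**
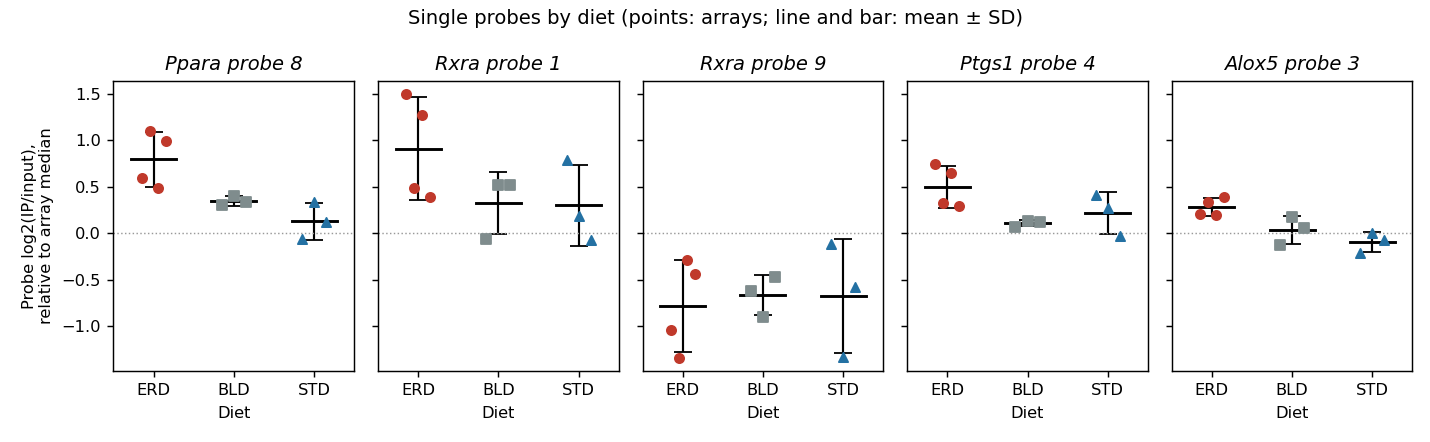
Log2 ratio of 5 single probes (vertical axis) by diet (horizontal axis), with 1 point per array and the mean ± SD. In Ppara probe 8 and Alox5 probe 3 the ERD points lie above all others, and in Rxra probe 9 all 10 arrays lie below 0.

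Pparg, the receptor known for fat cell differentiation, showed no order by diet. Its 8 probes at chr6:115311273-115312222 averaged 0.00, 0.28, -0.11 and 0.07 in ERD, 0.25, 0.03 and 0.04 in BLD, and -0.17, 0.20 and 0.21 in STD. The range of each diet overlapped those of the others. The mean ± SD was 0.06 ± 0.16 in ERD, 0.11 ± 0.12 in BLD and 0.08 ± 0.22 in STD. The difference of ERD minus STD was -0.02, with a 95% interval of -0.29 to 0.25 (limma adjusted p = 0.949), and 0.039 with normexp. The probe means were the most even of the 5 genes, from -0.04 at probe 6 to 0.22 at probe 8. The lowest p values belonged to probe 2 between ERD and STD (-0.36, limma adjusted p = 0.511) and between BLD and STD (-0.40, adjusted 0.568, or -0.055 with normexp), and to probe 5 between ERD and BLD (-0.40, adjusted 0.530).

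Rxra, the shared partner of both PPARs, had the most uneven island. Its 10 probes at chr2:27531874-27533362 averaged 0.01, -0.26, 0.07 and 0.07 in ERD, -0.17, -0.15 and -0.02 in BLD, and 0.10, -0.20 and -0.07 in STD. The diets overlapped, and the mean ± SD was -0.03 ± 0.16 in ERD, -0.11 ± 0.08 in BLD and -0.06 ± 0.15 in STD. The difference of ERD minus STD was 0.03, with a 95% interval of -0.21 to 0.27 (limma adjusted p = 0.914), and -0.054 with the median of probes.

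Within the Rxra island, the highest probe mean was 0.55, at one end, and the lowest was -0.72, near the other. The means between them did not fall steadily, and probe 8, beside the lowest, had 0.20. Probe 1 (chr2:27531874-27531933), above 94.9% of all probes by mean, had 1.50, 0.49, 1.27 and 0.39 in ERD, -0.06, 0.52 and 0.52 in BLD, and 0.79, 0.19 and -0.07 in STD. ERD replicates 1 and 3 and STD replicate 1 were high, though the spot of ERD replicate 3 was not well above background. ERD overlapped both other diets. The difference of probe 1 between ERD and STD was 0.61 ± 0.31 (SE, limma adjusted p = 0.382), and 0.02 with normexp background correction. Probe 9 (chr2:27533247-27533292) had -1.05, -1.34, -0.29 and -0.44 in ERD, -0.63, -0.90 and -0.47 in BLD, and -0.12, -1.33 and -0.58 in STD. It was the only probe of the 35 that lay below the median on all 10 arrays, where 10.4% of all probes did, and 0 of the 35 lay above it on all arrays, against 7.35%. Probe 8 of Rxra had 0.38, 0.31, 0.43 and 0.42 in ERD, -0.09, 0.23 and 0.11 in BLD, and 0.07, 0.17 and -0.02 in STD, so ERD lay above both other diets. That difference, 0.31 ± 0.16 (SE) between ERD and STD, had a limma adjusted p of 0.385. Probe 2 had the lowest p between BLD and STD (0.45 ± 0.26 SE, limma adjusted p = 0.529), and that difference was -0.21 with normexp.

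**Figure D3:**
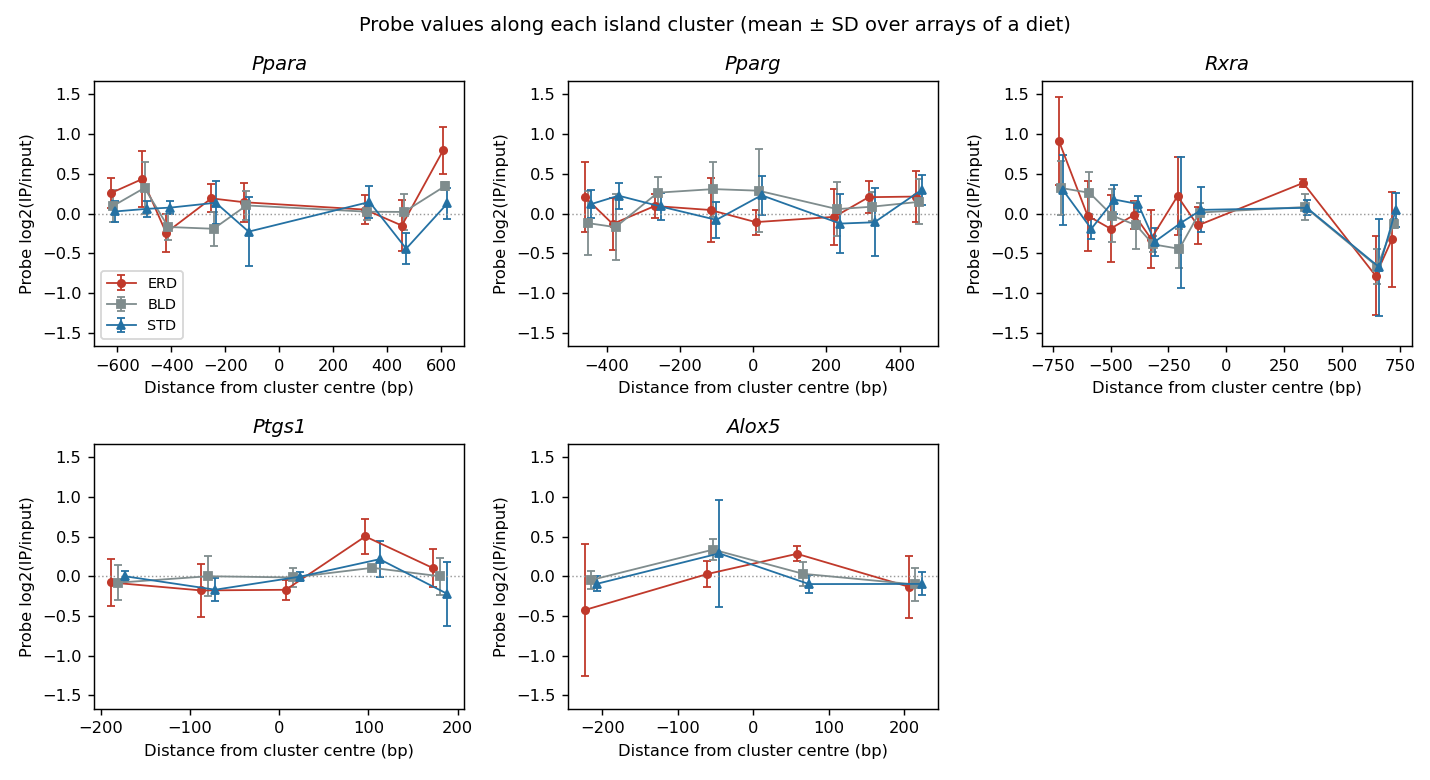
Probe log2 ratio (vertical axis) along each island by distance from the cluster centre in bp (horizontal axis), as the mean ± SD over the arrays of each diet. Rxra has its highest probe at the left end and its lowest near the right end in all diets, without a steady fall between them. Pparg stays near 0 throughout.

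Ptgs1 encodes the constitutive cyclooxygenase COX-1. Its 5 probes at chr2:36086050-36086455 averaged 0.14, -0.13, 0.05 and 0.09 in ERD, 0.10, -0.14 and 0.05 in BLD, and 0.01, -0.07 and -0.05 in STD. The diets overlapped, and ERD minus STD was 0.07 with a 95% interval of -0.14 to 0.28 (limma adjusted p = 0.736), or -0.011 with normexp. Probe 4 had the highest mean, with 0.74, 0.33, 0.64 and 0.29 in ERD, 0.07, 0.13 and 0.12 in BLD, and 0.41, 0.27 and -0.03 in STD. ERD lay above BLD but overlapped STD, and its difference from BLD was 0.39 ± 0.19 (SE, limma adjusted p = 0.437). Probe 5 had the lowest p between BLD and STD (0.22, limma adjusted p = 0.733). It was not well above background on STD replicates 2 and 3, and the difference was -0.30 with normexp and -0.0085 without STD replicate 2. Probe 2, the lowest by mean, was well above background on 1 of 10 arrays, so it is given no comparison. Ptgs2, which encodes the inducible cyclooxygenase COX-2, has no value for lack of probes.

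Alox5 had the fewest probes, 4 at chr6:116410742-116411216. The cluster had -0.29, 0.01, -0.05 and 0.08 in ERD, 0.13, 0.04 and -0.01 in BLD, and -0.08, 0.21 and -0.12 in STD. The diets overlapped, and ERD minus STD was -0.06 with a 95% interval of -0.31 to 0.19 (limma adjusted p = 0.810). Its direction turned with normexp background correction, to 0.48 (limma adjusted p = 0.508), and with the median of probes, to 0.13 (adjusted 0.493). The low ERD replicate 1 came from probe 1, which had -1.66 there and -0.13 to 0.09 on the other ERD arrays. Without probe 1, an alternative chosen after seeing the data, ERD minus STD was 0.03 (limma adjusted p = 0.925). Probe 3 (chr6:116411023-116411067) had 0.21, 0.34, 0.19 and 0.39 in ERD, -0.13, 0.17 and 0.05 in BLD, and -0.22, 0.00 and -0.07 in STD, so ERD was above both other diets. It differed by 0.38 ± 0.16 (SE) between ERD and STD (limma adjusted p = 0.304). Probe 2, the highest by mean, had 1.05 on STD replicate 2 and was not well above background there.

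Across the genes, ERD minus STD had 0 of 5 clusters at a limma adjusted p under 0.05, as had 0% of all clusters. At an unadjusted p under 0.05 there was 1 of 5, Ppara, against 15.7% of all, and 1 of 5 had arrays that did not overlap, against 16.2%. Of the 35 probes, 0 passed the adjusted threshold, 2 had an unadjusted p under 0.05, Ppara probe 8 and Alox5 probe 3, against 15% of all probes, and 3 did not overlap, against 16.4%. The share of probes past the unadjusted threshold was thus below that of the array, but it rests on 2 probes and was not tested. ERD lay above both BLD and STD in 3 of the 35 probes, Ppara probe 8, Rxra probe 8 and Alox5 probe 3, and in 1.63% of all probes. These probes lie in 3 different islands, and 0 of them passed the adjusted threshold. The median cluster difference was 0.03, against 0.0033 over all clusters.

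For ERD minus BLD, which shares the ERD arrays with that comparison, 0 of 5 clusters passed the limma adjusted threshold (0% of all), 0 had an unadjusted p under 0.05 (10.2% of all) and 1, Ppara, did not overlap (10.1% of all). Of the 35 probes, 1 had an unadjusted p under 0.05, against 11.7%, and 6 did not overlap, against 11.5%. For BLD minus STD, 0 of 5 clusters passed (0% of all), 0 had an unadjusted p under 0.05 (11.2%) and 0 were apart (17.4%). There, 0 of 35 probes had an unadjusted p under 0.05, against 10.5%, and 2 did not overlap, against 16.6%. In the trend on the log2 ratio of the diet, 0 of 5 clusters passed in limma, against 0.0434% of all, and 1 had an unadjusted p under 0.05, against 15%. Of the probes, 0 passed (0% of all) and 2 of 35 had an unadjusted p under 0.05, against 14.6%. With this processing the 95% intervals over the 5 clusters and 3 pairs of diets reached from -0.37 to 0.38, and with normexp the estimate for Alox5, ERD minus STD, lay outside them at 0.48.

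**Figure D4:**
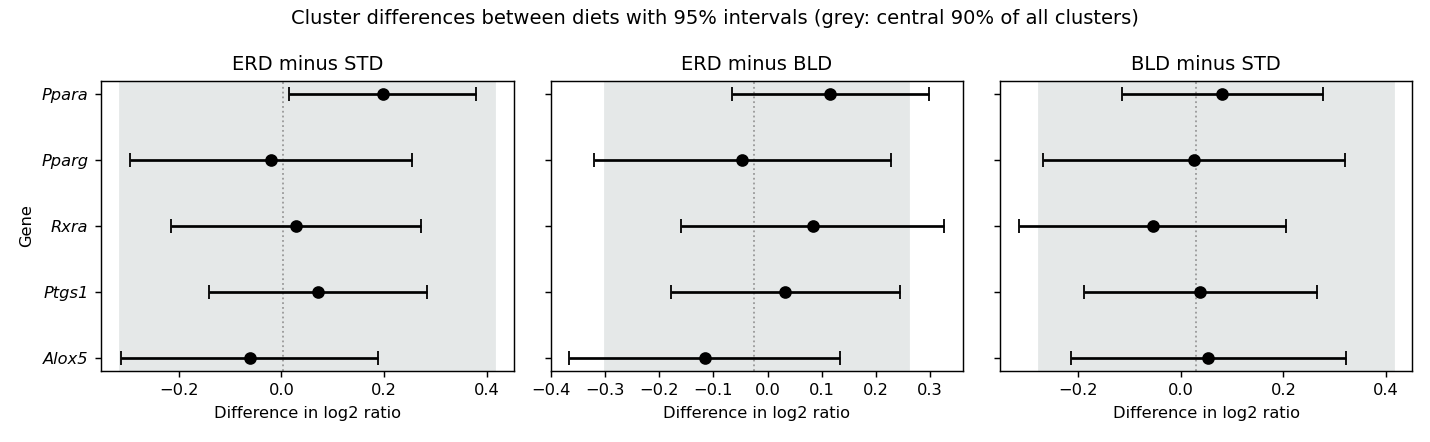
Difference in cluster log2 ratio (horizontal axis) for each gene and pair of diets, as the limma estimate with its 95% interval over the central 90% of all clusters in grey and their median as a dotted line. The interval of Ppara for ERD minus STD runs from 0.01 to 0.38, and every other interval includes 0. The intervals are not adjusted for the number of clusters, and 15.7% of all clusters had an unadjusted limma p under 0.05 for ERD minus STD.

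Diets and slides were nearly the same split, with 5 slides of which 1 held more than 1 diet. On that slide BLD replicate 3 minus STD replicate 1 was 0.05 for Ppara, 0.21 for Pparg, -0.12 for Rxra, 0.04 for Ptgs1 and 0.07 for Alox5. For ERD, which had slides of its own, slide and diet cannot be told apart.

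The clusters whose values over the 10 arrays were most like each gene's are given by position, with Pearson's r as a description, since values of an array share its hybridisation and scaling. For Ppara they were chr1:69873331-69873823 (r = 0.97), chr15:37065165-37065825 (0.93) and chr8:87227757-87228191 (0.93). The closest was chr10:80695717-80695954 for Pparg (r = 0.93), chr7:87259796-87260597 for Rxra (0.95), chr13:18035497-18036406 for Ptgs1 (0.90) and chr15:101269185-101269483 for Alox5 (0.96). Ptgs1 had 9 clusters with r over 0.8 among the 13830 others, and the other 4 genes had 73 to 98.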

How the data were processed

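Per the labels' protocols, total DNA was labelled with Cy3 and immunoprecipitated DNA with Cy5 on all 10 arrays, with no dye swap. Spots were read by Agilent Feature Extraction 10.7.3.1 with positions on mm9, per the file headers; the submitters' processing notes list version 9.0. The deposited processed intensity was already background-subtracted and scaled between dyes. The deposited log10 ratio, also held in the series value table, differed from the scanner files by at most 0.00498 on the log10 scale. Other deposited columns, the flags and positions, are codes.

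The log2 ratio of the deposited processed intensities was computed per probe. Outlier-flagged spots were dropped, and the median over the 88737 probes other than controls was subtracted from each array; 0 spots of these genes were flagged as outliers or saturated. Clusters had at least 3 probes with starts at most 500 bp apart. limma 3.58.1 in R 4.3.3 (lmFit, eBayes) was fitted over all 10 arrays without covariates, with Benjamini-Hochberg adjustment over the whole table and a threshold of 0.05. Intervals are 95%.

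Tested on simulated data for ERD minus STD, the cluster fit recovered 38% of shifts of 0.5 and 88% of shifts of 1 among 13835 clusters. The probe fit recovered 0% of either among 86908 probes, so 0 probe calls say little about shifts of that size. The largest cluster difference of these genes, 0.20 for Ppara between ERD and STD, was smaller than either simulated shift. The 0 cluster calls therefore say little about differences of its size. The simulated noise was normal and drawn independently for each cluster or probe.

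The genes, windows and lists were chosen with earlier results of these data known. Single probes named are the highest and lowest by mean in each gene and the one with the lowest p in each comparison. As a check of the windows, distances between clusters were set against distances between RefSeq starts on GRCm38.p6. They were 8553.634 kb against 8553.225 kb for Rxra and Ptgs1, and 1099.232 kb against 1098.829 kb for Pparg and Alox5. Of several starts, those giving the nearest distance were taken, which favours a match. A shift shared by both windows of a pair would not show, and Ppara and Ptgs2 were not checked. Further genes of the pathway were not analysed here. Alternatives were normexp, loess, quantile and spread scaling, the value table, bright probes, slide as a random or fixed block, weighted arrays, other clusters and leaving out arrays. The normexp alternative used median spot signals.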

Additional observations from a re-analysis of the deposited data

Results flagged for a closer look

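Among 21 cluster and probe values of these genes checked in the 4 ERD arrays, 2 had a sample far from the others. Both were low on ERD replicate 1. Probe 7 of Ppara had -0.63 there, against 0.00, -0.01 and 0.04 on the other ERD arrays, and the gap was 0.927 of the range. Probe 1 of Alox5 had -1.66 there, against -0.13 to 0.09 and the gap was 0.874 of the range. Both gaps exceed Dixon's 95% limit for 4 values, a limit that chance alone passes about 1 time in 20 groups. Both probes were among those checked for having the lowest mean of their gene in these same data. The limit therefore cannot show that these values are more than selection or chance. Both spots were well above background on that array. Groups of 3 arrays were not checked.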

How the results depend on the processing

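No cluster or probe of these genes passed the limma adjusted p of 0.05 under any alternative run. Of 493 cluster differences under alternatives, 435 kept their direction and 58 turned. Of 395 probe differences, 388 kept it and 7 turned. Some could not turn, since a difference between diets is unchanged when an array of a diet outside it is left out. The probes were those with the lowest p of their gene in each comparison in these same data, while the clusters were not picked. These counts therefore do not measure how firm the directions are, and those of clusters and probes cannot be compared. The cause of the turns was not tested. Under normexp, Alox5 was 0.23 for ERD minus BLD, 0.48 for ERD minus STD and 0.088 for the trend. Pparg was 0.0064 for ERD minus BLD, 0.039 for ERD minus STD and 0.0069 for the trend, with 0.099 for the trend of its probe 5. Ptgs1 was -0.10 for BLD minus STD and -0.011 for ERD minus STD, with -0.30 for BLD minus STD at probe 5. In BLD minus STD, Ppara probe 7 was -0.19 and Rxra probe 2 was -0.21. With the median of probes, Alox5 was 0.13 for ERD minus STD and 0.022 for the trend, Ptgs1 was -0.039 for ERD minus BLD, -0.00011 for ERD minus STD and -0.00084 for the trend, and Rxra was -0.031, -0.054 and -0.0100 for the same contrasts. With probes well above background on all arrays, Ppara was -0.16 for BLD minus STD, -0.032 for ERD minus STD and -0.0029 for the trend, Alox5 was 0.0043 and Rxra -0.042 for ERD minus STD, the Rxra trend was -0.0052, and Ptgs1 was -0.066 for BLD minus STD. Without probe 1, Alox5 was 0.027 for ERD minus STD and 0.0042 for the trend. With slide as a fixed block the ERD contrasts could not be estimated, and the trend, which then rests on the 1 slide with more than 1 diet, was 0.029 for Alox5, 0.080 for Pparg, -0.046 for Rxra and -0.11 for Ptgs1 probe 4, and Pparg probe 2 was 0.20 for BLD minus STD. In BLD minus STD, Pparg was -0.034 with array weights, -0.027 after scaling and -0.049 after quantile normalization, and Ptgs1 was -0.012 with array weights.

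Leaving out 1 array at a time turned some directions, and the range is given for those. For Alox5 it was -0.0076 to 0.16 for BLD minus STD, -0.12 to 0.042 for ERD minus STD and -0.025 to 0.0021 for the trend. For Pparg it was -0.099 to 0.090 for BLD minus STD, -0.12 to 0.024 for ERD minus BLD, -0.14 to 0.044 for ERD minus STD and -0.025 to 0.0067 for the trend. For Ptgs1 it was -0.0094 to 0.11 for BLD minus STD and -0.038 to 0.087 for ERD minus BLD. For Ptgs1 probe 5 it was -0.0085 to 0.35 for BLD minus STD. For Rxra it was -0.13 to 0.025 for BLD minus STD, -0.043 to 0.11 for ERD minus STD and -0.0027 to 0.021 for the trend. For Ppara, ERD minus STD ranged from 0.16 to 0.24, and over all alternatives from -0.032 to 0.24 with limma adjusted p from 0.206 to 0.889.

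No paired analysis was possible because the labels carry no replicate numbers shared between diets. With 3 or 4 arrays a diet, whole hemibrain and no dye swap, differences within single cell types were not measured, and pull-down strength and methylation cannot be told apart. Spots not well above background limit several named probes: Ptgs1 probe 2 on 9 arrays, Ppara probe 8, Pparg probe 2, Ptgs1 probe 5 and Alox5 probe 2 on 2 each, and Ppara probe 7, Rxra probe 1 and Rxra probe 2 on 1 each.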

Other observations

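Over the 10 arrays the islands of Rxra and Pparg, which encode partners in the same receptor pair, varied in opposite directions. Pearson's r was -0.84 and Spearman's rho -0.83, and r was -0.75 over 8 arrays without the 2 farthest from the median. Of 13834 other clusters, 69 (0.499%) had an r with Rxra at or below this value. The r was -0.81 after scaling the arrays to one spread, -0.68 after quantile normalization and 0.43 with normexp background correction. The pair was noticed in the data and had the most extreme r of all pairs of these genes, so its rank among clusters is a description only. The other pairs ran from -0.49 (Rxra and Alox5) to 0.61 (Rxra and Ptgs1). Ppara, whose product also pairs with RXRα, had an r of 0.21 with Rxra. Each pair of values comes from the same array and its processing, and no test was made.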
